A study of Homo sapiens with 6 samples.

Results

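The genes described here were 29 nuclear genes whose products cut, tail, stabilise or degrade the RNA made from mitochondrial DNA (mtDNA), or help to build the granules in which that RNA is handled. They were picked by gene symbol from a table of 19330 genes with 1 transcript each. All 29 were found in it, with PRORP under its older symbol KIAA0391, and all 29 passed the filter on low counts. The study asked how loss of N6AMT1, a methyltransferase that modifies the release factor eRF1, affects the work of cytosolic ribosomes. It used K562, a cell line from a human chronic myelogenous leukemia. In ribosome profiling (Ribo-Seq), mRNA is digested and the short pieces covered by ribosomes, called footprints, are sequenced, and their count on a coding sequence (CDS) measures how many ribosomes occupied it. Both groups carried the lentiviral CRISPR/Cas9 vector pLentiCRISPRv2, both went through 48 h of puromycin and both were analysed 10 days post infection. The sgN6AMT1 group (3 libraries) received guides against N6AMT1. The control group, sgCtrl (3 libraries), received guides given in the labels as OR11A1 and OR2M49, while the methods of the study name OR11A1 and OR2M4, olfactory receptor genes, or EGFP as control targets. The sources describe the libraries of each condition as independent infections, do not say which guide each library carried, and describe pools of transduced cells rather than clones.

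RNA from human mtDNA is made as long transcripts that run through many genes, with tRNAs lying between most of the mRNAs and rRNAs. Mitochondrial RNase P (subunits TRMT10C, HSD17B10 and PRORP) cuts at the front end of each tRNA and RNase Z (ELAC2) at the back end, which frees the neighbouring RNAs. The freed RNAs are then handled by FASTK family proteins, tailed by MTPAP, kept by the LRPPRC-SLIRP pair, and degraded by the PNPT1-SUPV3L1 pair, much of it in granules beside the mtDNA. All of these proteins are encoded in the nucleus and made by cytosolic ribosomes, which are the ribosomes counted here for the 29 genes.

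The libraries held between 1821356 and 2969736 footprint counts, and the ranges of the groups overlapped (2-sided exact permutation test, p = 0.6, in a design of 3 against 3 that cannot go below 0.1). A member gene had between 24 and 2601 counts in a library. N6AMT1 itself had 12.5 ± 4.24 CPM (counts normalised to library size; SD, n = 3) in sgCtrl and 4.21 ± 0.275 in sgN6AMT1, from 25, 24 and 34 counts against 10, 9 and 8. On the log2 scale it fell by 1.51 (SE 0.31; adjusted p = 6.69e-05 by the Benjamini-Hochberg method, quasi-likelihood test of edgeR). All 11 erythroid and myeloid markers of K562 cells had counts, and their summed level ran from 25300 to 26670 CPM in sgCtrl and from 26210 to 26990 CPM in sgN6AMT1. Most of this sum lay on the globin genes HBG1, HBG2 and HBE1 (means of 9553, 9920 and 3567 CPM in sgCtrl), so it says little about the other markers. Of the 11 markers, GATA1, KLF1, LMO2 and TFRC were called lower and HBE1 and TAL1 higher, 4 and 2 of 11. Over all genes tested, 13.9% were called lower and 12.9% higher. Of the markers of other cell types, the lymphoid list summed to between 28.5 and 40.3 CPM, carried by CD3D with MS4A1 at 0. The epithelial list summed to between 162 and 196 CPM, carried by EPCAM with KRT5 at 0, and the mesenchymal list to between 32.0 and 42.9 CPM with LUM at 0. The part of these markers in the results on the 29 genes was not tested.

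Footprints on the 29 genes were lower as a sum in sgN6AMT1. They made up 0.380%, 0.383% and 0.374% of all counts in control cells and 0.335%, 0.333% and 0.331% after depletion. Their summed level was 3879 ± 44.3 CPM (SD, n = 3) in sgCtrl and 3285 ± 13.7 CPM in sgN6AMT1. LRPPRC alone made up 46.5% of this decrease, and without LRPPRC the member sums were 2997 ± 30.5 and 2679 ± 16.4 CPM. In bulk samples such as these, fewer cells of a type and less RNA per cell cannot be told apart, and a footprint count reflects how much mRNA there was as well as how often it was translated. RNA sequencing of these cells was not used here. In its own RNA sequencing the study reported unchanged transcript levels for genes of mitochondrial RNA metabolism, PRORP and TRMT10C among them. It also reported that translation efficiency, footprints relative to mRNA, bore out the depleted mitochondrial RNA pathways.

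Gene by gene, 11 of the 29 members fell past an adjusted p of 0.05, none rose, and 18 did not pass. Over all 9202 genes tested, 13.9% were called lower and 12.9% higher by the same rule. The members' share of lower calls (37.9%) stood above that background and their share of higher calls (0) below it. Among genes averaging at least 50 counts, 17.1% of all genes and 37% of members were lower. The study had reported mitochondrial RNA pathways as the most depleted mitochondrial ones in these data. The members were chosen with earlier results known, so these shares are description, not a test. At an unadjusted p under 0.05, 13 members were lower and 1, LACTB2, was higher, against 18.5% and 18.3% of all genes, and DESeq2 called 0 members higher. The median log2 fold change of the members was -0.14, against 0.01 for all genes tested. In 15 members (51.7%) every sgN6AMT1 library was below every sgCtrl library, against 19.2% of all genes, and in 2 members (6.9%) every sgN6AMT1 library was above, against 18.4% of all genes. PRORP and TRMT10C are central to the study, and without them 9 of 27 members (33.3%) fell. The lower calls were spread unevenly over roles, with 3 of 4 tRNA excision genes, 3 of 6 FASTK family genes, 2 of 4 stability and tailing genes, 2 of 6 decay genes, 1 of 6 genes for rRNA and granule assembly, and 0 of 3 pentatricopeptide repeat (PPR) genes. The differences between roles were not tested.

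**Figure D1:**
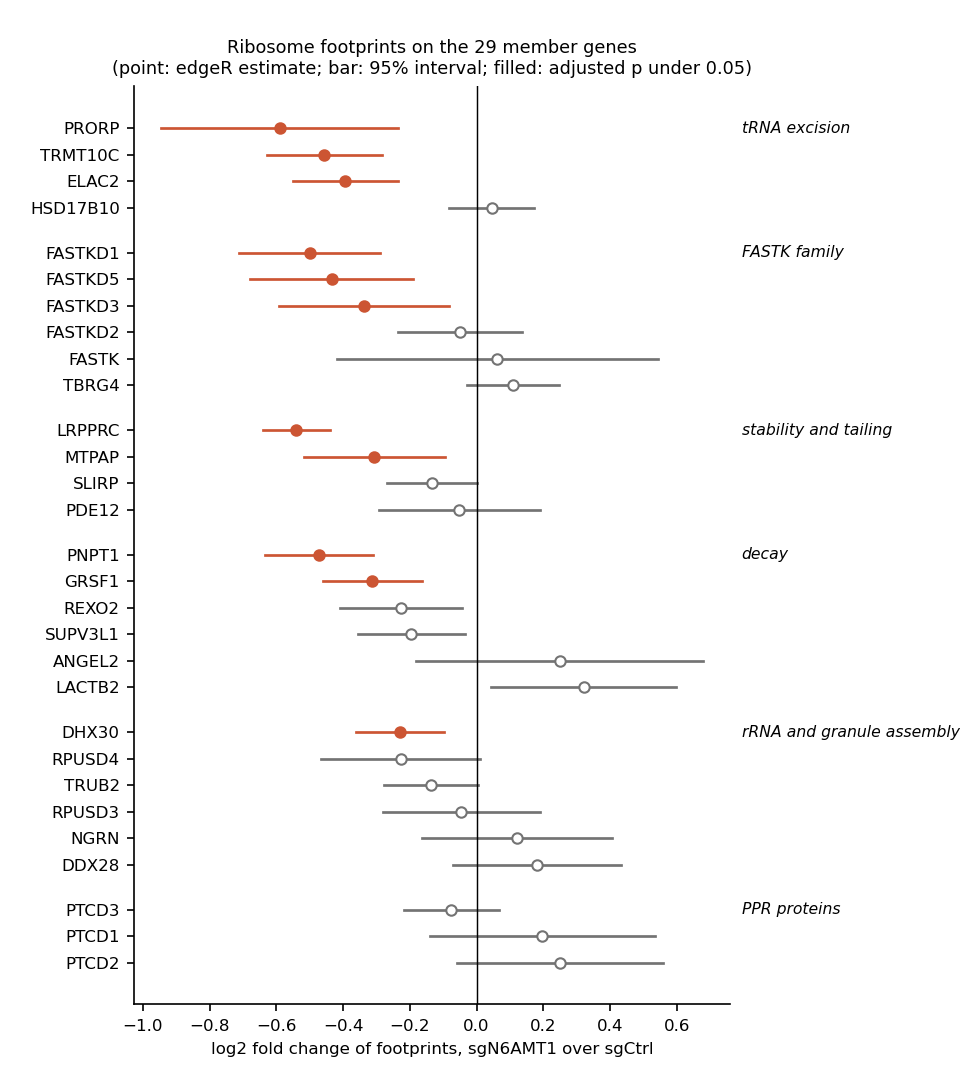
Log2 fold change of footprints (sgN6AMT1 over sgCtrl, horizontal axis) for each of the 29 genes, grouped by role, with the edgeR estimate as a point and its 95% interval as a bar. Filled points mark the 11 genes with an adjusted p under 0.05, all of them left of 0, and HSD17B10 is the tRNA excision gene whose interval spans 0.

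The windows around the stop codons of 8 genes that the results turn on, the tRNA excision enzymes and the LRPPRC-SLIRP and PNPT1-SUPV3L1 pairs, are shown because eRF1, the protein that N6AMT1 methylates, reads this codon. Each runs from the last bases of the CDS into the first bases after it, 5′ to 3′ on the coding strand. The stop codon is in capitals. The windows were read from the transcript sequences of the annotation GENCODE release 44, with positions in GRCh38. They are those of the transcripts listed in the table, which for SLIRP and PNPT1 are not the MANE Select transcript, the reference isoform of the gene, so that their stop codon and CDS length may not be those of the main isoform. The stop codons lie at chr14:35273564-35273566 (+ strand) for PRORP, chr3:101565991-101565993 (+) for TRMT10C, chrX:53431404-53431406 (- strand) for HSD17B10, chr17:12992818-12992820 (-) for ELAC2, chr2:43888600-43888602 (-) for LRPPRC, chr14:77760761-77760763 (+) for SLIRP, chr2:55636237-55636239 (-) for PNPT1 and chr10:69209033-69209035 (+) for SUPV3L1.
PRORP: caaaagacaTAGagattc
TRMT10C: gcaaagactTAAttcatt
HSD17B10: atgcagcctTGAagggag
ELAC2: agagcccagTGAagatct
LRPPRC: aactcttctTGAaataac
SLIRP: ccgcccaaaTAAgccact
PNPT1: aattctcagTGAtttttt
SUPV3L1: gattcggacTAGttttct

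Among the genes for tRNA excision, the nuclease and methyltransferase subunits of mitochondrial RNase P and the back-end nuclease ELAC2 fell, while the third RNase P subunit did not pass the test. TRMT10C, the subunit that methylates tRNAs and carries them to the nuclease, lies at chr3:101561868-101566446 and has 2 exons and a CDS of 1212 bases. Its footprints were 138, 151 and 139 CPM in control cells and 116, 106 and 89.0 CPM in sgN6AMT1 cells, so all sgN6AMT1 libraries sat below all controls. The log2 fold change was -0.46 (SE 0.09, 95% interval -0.63 to -0.28, adjusted p = 1.58e-05, edgeR), a decrease in which footprints fell by 27.1%. PRORP, the subunit that makes the cut, lies at chr14:35122552-35277622 with 8 exons and a CDS of 1752 bases, and was among the members with the fewest footprints. It had 24.6, 30.7 and 24.2 CPM in sgCtrl and 16.7, 19.0 and 17.9 CPM in sgN6AMT1, which again did not overlap. These values rest on 49, 89 and 49 counts against 38, 44 and 33. The CDS overlaps exon sequence of an unnamed gene on the same strand, so reads may be shared. The log2 fold change of PRORP was the most negative of the 29 genes at -0.59, with the widest interval among the 11 genes that fell (SE 0.18, 95% interval -0.94 to -0.24, adjusted p = 7.69e-03, edgeR). The sgCtrl library 2 was the highest for PRORP, and without it the log2 fold change was -0.45 with an edgeR adjusted p of 0.109. The call was also lost with DESeq2 (adjusted p = 0.122).

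HSD17B10, a dehydrogenase that doubles as the scaffold of mitochondrial RNase P, showed another picture. Its footprints were 254, 235 and 267 CPM in sgCtrl and 253, 253 and 272 CPM in sgN6AMT1, and the groups overlapped. The log2 fold change was 0.04 (SE 0.06, adjusted p = 0.664, edgeR), and its 95% interval of -0.08 to 0.17 does not reach the estimates of TRMT10C and PRORP. In a fit described further on, with trends with CDS length and GC content removed, its log2 fold change was -0.13 (adjusted p = 0.0626, edgeR). That fit also lowered the median log2 fold change of all genes, from 0.01 to -0.08. HSD17B10 lies at chrX:53431261-53434370 and has 6 exons and a CDS of 786 bases. ELAC2, the mitochondrial and nuclear RNase Z, lies at chr17:12991612-13018027 with 24 exons and a CDS of 2481 bases. It had 169, 182 and 164 CPM in sgCtrl and 143, 122 and 129 CPM in sgN6AMT1, without overlap. Its log2 fold change was -0.39 (SE 0.08, adjusted p = 3.95e-05, edgeR), with footprints that fell by 23.8%.

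**Figure D2:**
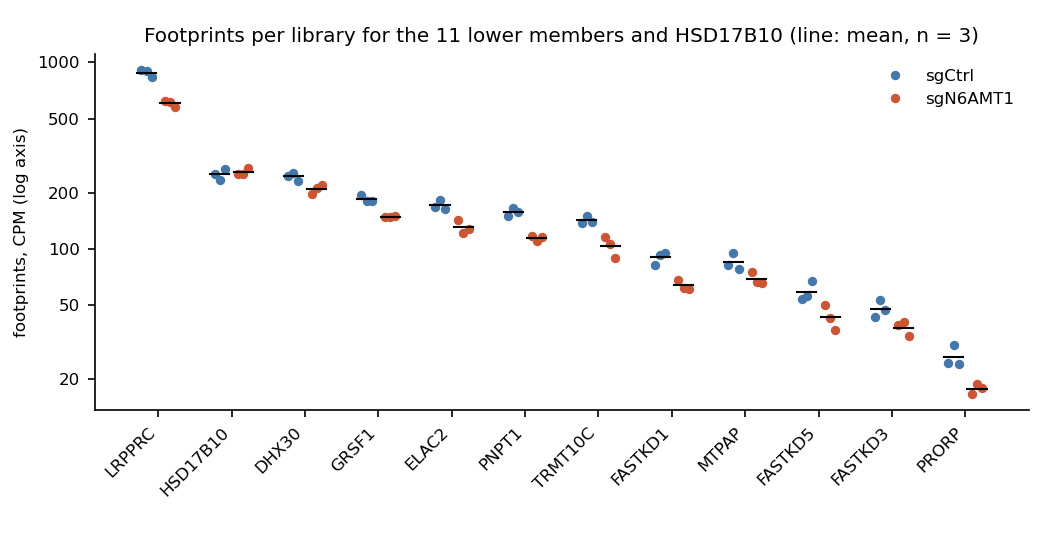
Footprints (CPM, log axis) in each of the 3 sgCtrl and 3 sgN6AMT1 libraries for the 11 genes that fell and for HSD17B10, in order of level, with the mean of each group as a line. In the 11 genes that fell the highest sgN6AMT1 library lies below the lowest sgCtrl library, and in HSD17B10 the groups overlap.

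Setting partners against each other within a library removes the effect of library size, and dividing by CDS length makes their levels comparable. The ratio of footprints per kilobase of CDS on TRMT10C to those on HSD17B10 was 0.353, 0.416 and 0.337 in control cells and 0.297, 0.273 and 0.212 in depleted cells. Its mean fell from 0.369 ± 0.0417 to 0.261 ± 0.0435 (SD, n = 3), a log2 difference of -0.51. The ratio of PRORP to HSD17B10 was lower in sgN6AMT1 as well, at 0.0476 ± 0.00969 against 0.0310 ± 0.00242 (log2 difference -0.60). Both ratios had an exact permutation p of 0.1, the smallest that 3 against 3 can give, and a Benjamini-Hochberg adjusted p of 0.125 over the 5 ratios compared. PRORP against TRMT10C, the 2 subunits that fell, gave a ratio of 0.128 ± 0.0112 in sgCtrl and 0.121 ± 0.0200 in sgN6AMT1, with overlapping libraries (log2 difference -0.09, exact permutation p = 0.7). On this per-kilobase scale HSD17B10 had 320.5 CPM per kilobase in sgCtrl, TRMT10C 117.7 and PRORP 15.1, so the subunit with the fewest footprints was the nuclease.

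**Figure D3:**
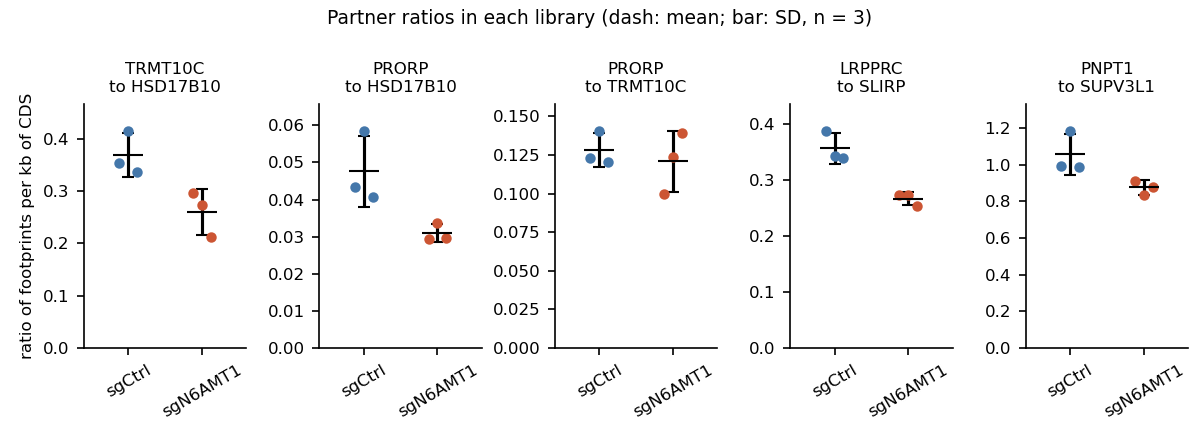
Ratio of footprints per kilobase of CDS between partner genes (vertical axis, 1 panel per pair, from 0) in each library, with the mean as a dash and the SD over 3 libraries as a bar. In 4 of the 5 pairs all sgN6AMT1 libraries lie below all sgCtrl libraries, and the exception is PRORP to TRMT10C.

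The FASTK family, RNA-binding proteins that each act on particular mitochondrial transcripts, split evenly between genes that fell and genes that did not pass. FASTKD1 had 81.9, 93.1 and 95.6 CPM in sgCtrl and 68.4, 61.8 and 61.3 CPM in sgN6AMT1, with a log2 fold change of -0.50 (SE 0.11, adjusted p = 1.11e-04, edgeR). FASTKD5, which is needed for mRNA ends that no tRNA flanks, had 54.3, 56.2 and 67.1 CPM against 49.97, 42.8 and 36.9 CPM, with a log2 fold change of -0.43 (SE 0.12, adjusted p = 4.25e-03, edgeR; 0.0689 with DESeq2). FASTKD3 had 43.2, 53.1 and 46.8 CPM against 39.0, 40.6 and 34.2 CPM, with a log2 fold change of -0.34 (SE 0.13, adjusted p = 0.0385, edgeR). None of these genes had libraries that overlapped between the groups. The call on FASTKD3 was the least secure of the 11, being lost in 10 of 16 alternative settings, DESeq2 among them (adjusted p = 0.264). Leaving out sgCtrl library 2 gave it a log2 fold change of -0.24 and an edgeR adjusted p of 0.275, and the call also went without sgCtrl library 3 (-0.36) or any of sgN6AMT1 libraries 1 (-0.36), 2 (-0.39) and 3 (-0.28). Its CDS also overlaps exon sequence of MTRR on the other strand, and whether strand was used in counting is not given in the sources used here. FASTKD2, a granule protein that binds the large mitochondrial rRNA, had a log2 fold change of -0.05 (95% interval -0.24 to 0.14, adjusted p = 0.741). TBRG4, also known as FASTKD4, had 0.11 (-0.03 to 0.25, adjusted p = 0.254), and FASTK, with 11.8 CPM in sgCtrl, had 0.06 (-0.42 to 0.54, adjusted p = 0.884, all edgeR).

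LRPPRC was the member with the most footprints and the smallest p. It keeps mitochondrial mRNAs from being degraded and helps them to be tailed, in a complex with the small protein SLIRP. LRPPRC lies at chr2:43886224-43995989 and has 38 exons and a CDS of 4185 bases. It had 909, 897 and 839 CPM in control cells against 622, 616 and 579 CPM in sgN6AMT1 cells, a gap far wider than the spread within either group. The log2 fold change was -0.54 (SE 0.05, 95% interval -0.64 to -0.44, adjusted p = 1.01e-15, edgeR), with footprints that fell by 31.3%, and by p it ranked 66 of 9202 genes. SLIRP had 222 ± 12.3 CPM in sgCtrl and 203 ± 1.53 CPM in sgN6AMT1 (SD, n = 3) and did not pass (log2 fold change -0.13, 95% interval -0.27 to 0.00, adjusted p = 0.140, edgeR), although its groups did not overlap. SLIRP passed in the fit with trends with CDS length and GC content removed (-0.31, adjusted p = 1.09e-05), which also lowered the median of all genes. For SLIRP, 2 annotated pseudogenes could share its reads. The LRPPRC to SLIRP ratio per kilobase was 0.389, 0.343 and 0.339 in control cells against 0.273, 0.274 and 0.254 after depletion, a log2 difference of -0.42 (exact permutation p = 0.1, the smallest possible, adjusted p = 0.125).

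Of the genes that set the tails of mitochondrial mRNAs, MTPAP, the poly(A) polymerase, had 82.4, 94.8 and 77.9 CPM in sgCtrl and 75.0, 67.0 and 65.7 CPM in sgN6AMT1. Its highest sgN6AMT1 library lay just below its lowest sgCtrl library, and its log2 fold change was -0.31 (SE 0.11, adjusted p = 0.0233, edgeR). The call on MTPAP went when sgCtrl library 2 was left out (-0.21, adjusted p = 0.223), and also without sgN6AMT1 library 2 (-0.28, adjusted p = 0.0993) or 3 (-0.28, adjusted p = 0.0632). PDE12, which removes such tails, had 47.9 ± 3.48 CPM in sgCtrl and 46.6 ± 1.21 CPM in sgN6AMT1 (SD, n = 3; log2 fold change -0.05, adjusted p = 0.796, edgeR).

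In the decay group, PNPT1 and GRSF1 fell. PNPT1, the polynucleotide phosphorylase that digests mitochondrial RNA, including the double-stranded RNA that arises when both mtDNA strands are transcribed, had 150, 166 and 158 CPM in sgCtrl and 118, 110 and 116 CPM in sgN6AMT1. Its log2 fold change was -0.47 (SE 0.08, 95% interval -0.63 to -0.31, adjusted p = 1.92e-06, edgeR), with footprints that fell by 27.9%. The transcript listed for PNPT1 is annotated as a target of nonsense-mediated decay, and 2 annotated pseudogenes could share its reads. GRSF1, an RNA-binding protein that marks mitochondrial RNA granules, had 195, 180 and 181 CPM in sgCtrl and 148, 149 and 150 CPM in sgN6AMT1 (log2 fold change -0.31, SE 0.07, adjusted p = 5.57e-04, edgeR). Both genes kept the groups apart in every library. SUPV3L1, the helicase that feeds RNA to PNPT1, had 151 ± 10.3 CPM in sgCtrl and 131 ± 1.51 CPM in sgN6AMT1 (SD, n = 3), with groups that did not overlap but a log2 fold change of -0.20 that missed the threshold (95% interval -0.35 to -0.04, adjusted p = 0.0600, edgeR). It passed without sgCtrl library 2 (-0.25, adjusted p = 0.0321) and with thinning of all libraries to the smallest total (-0.25, adjusted p = 0.0230). SUPV3L1 also passed in the fit with trends with CDS length and GC content removed (-0.22, adjusted p = 0.0146), which lowered the median of all genes as well. The PNPT1 to SUPV3L1 ratio per kilobase was 1.06 ± 0.113 in sgCtrl and 0.875 ± 0.0394 in sgN6AMT1 (log2 difference -0.27, exact permutation p = 0.1, the smallest possible, adjusted p = 0.125).

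REXO2, which degrades the short RNA pieces that other nucleases leave, had 113 ± 11.4 CPM in sgCtrl and 96.7 ± 7.28 CPM in sgN6AMT1 (SD, n = 3; log2 fold change -0.23, adjusted p = 0.0577, edgeR). Its groups overlapped, and it passed without sgCtrl library 1 (-0.30, adjusted p = 0.0157) and in the fit with those trends removed (-0.23, adjusted p = 0.0327), for which REXO2 itself had no CDS length or GC content. LACTB2, an endoribonuclease, and ANGEL2, a relative of the CCR4 deadenylase, had log2 fold changes above 0. LACTB2 had 30.9 ± 3.25 CPM in sgCtrl and 39.0 ± 2.64 CPM in sgN6AMT1, without overlap, and a log2 fold change of 0.32 (95% interval 0.04 to 0.60, adjusted p = 0.0768, edgeR). Its CDS overlaps exon sequence of LACTB2-AS1 on the other strand. ANGEL2 had 13.8 ± 1.62 and 16.4 ± 2.76 CPM and a log2 fold change of 0.25 (-0.18 to 0.68, adjusted p = 0.430, edgeR), an interval that holds changes in both directions.

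Among the genes for rRNA handling and granule assembly, DHX30 was the gene that fell. DHX30, a helicase of mitochondrial RNA granules that is needed for mitoribosome assembly, had 248, 256 and 232 CPM in sgCtrl and 198, 212 and 220 CPM in sgN6AMT1. Its log2 fold change was -0.23 (SE 0.07, adjusted p = 5.27e-03, edgeR), the least negative among the 11 genes that fell, and without sgCtrl library 2 it missed the threshold (-0.20, adjusted p = 0.0601). DDX28, another helicase of the granules, had 40.4 ± 1.40 CPM in sgCtrl and 45.9 ± 2.95 CPM in sgN6AMT1 (SD, n = 3), with every sgN6AMT1 library above every sgCtrl library and a log2 fold change of 0.18 (adjusted p = 0.308, edgeR). The pseudouridine synthases TRUB2, RPUSD3 and RPUSD4 and the rRNA regulator NGRN form a module that binds the large mitochondrial rRNA. Their log2 fold changes were -0.14, -0.05, -0.23 and 0.12, with edgeR adjusted p-values of 0.149, 0.818, 0.156 and 0.584. The CDS of NGRN overlaps 2 unnamed genes on the same strand, and 3 annotated pseudogenes could share its reads. That of TRUB2 overlaps exon sequence of SWI5 on the other strand. TRUB2 and RPUSD4 had groups that did not overlap. Both passed in the fit with trends with CDS length and GC content removed (-0.31, adjusted p = 3.04e-05, and -0.41, adjusted p = 2.61e-03). That fit also lowered the median log2 fold change of all genes, from 0.01 to -0.08.

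The 3 PPR proteins, which bind RNA through repeats like those of LRPPRC, did not pass. PTCD1, which acts on the large mitochondrial rRNA and on leucine tRNAs, had a log2 fold change of 0.20, PTCD2 had 0.25, and PTCD3, a protein of the small mitoribosomal subunit, had -0.08, with edgeR adjusted p-values of 0.428, 0.245 and 0.472. All 3 had groups that overlapped. The CDS of PTCD1 overlaps exon sequence of the read-through gene ATP5MF-PTCD1, and that of PTCD2 overlaps exon sequence of MRPS27 on the other strand. Reads may thus be split or shared between them. The transcript listed for PTCD2 is annotated as a target of nonsense-mediated decay, and 2 annotated pseudogenes could share its reads.

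Features of the coding sequence that the choice of members did not use are given as description, over the 28 members and 8589 tested genes with a complete CDS in GENCODE release 44. By GC content of the CDS, 14 members lay in the lowest tercile of tested genes (up to 46.4%), and 8 of them fell, with a median log2 fold change of -0.32. Of all genes in that tercile 15.9% were called lower, with a median of -0.03. In the highest tercile (above 55.9%) lay 10 members, of which 2, ELAC2 and DHX30, fell, with a median of 0.00, where 11.6% of all genes were called lower with a median of 0.04. By length, 7 of the 12 members in the longest tercile (above 1861 bases) fell, and 0 of the 5 in the shortest (up to 1026 bases), against 16.9% and 11.7% of all genes. Across the 28 members the log2 fold change had a Pearson correlation of 0.38 (Spearman 0.41) with GC content and of -0.41 with the logarithm of CDS length. Over all 8589 genes these Pearson correlations were 0.07 and -0.11. The points come from the same 6 libraries. With both trends removed from the counts of all genes, 16 members were called lower, where 22.3% of all genes were. That fit also lowered the median log2 fold change of all genes, from 0.01 to -0.08. Its trends were fitted without the scaling factors of the main fit and then added to them. A difference in scale between the groups was thus removed a second time. How many of the added calls came from this shift was not tested.

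**Figure D4:**
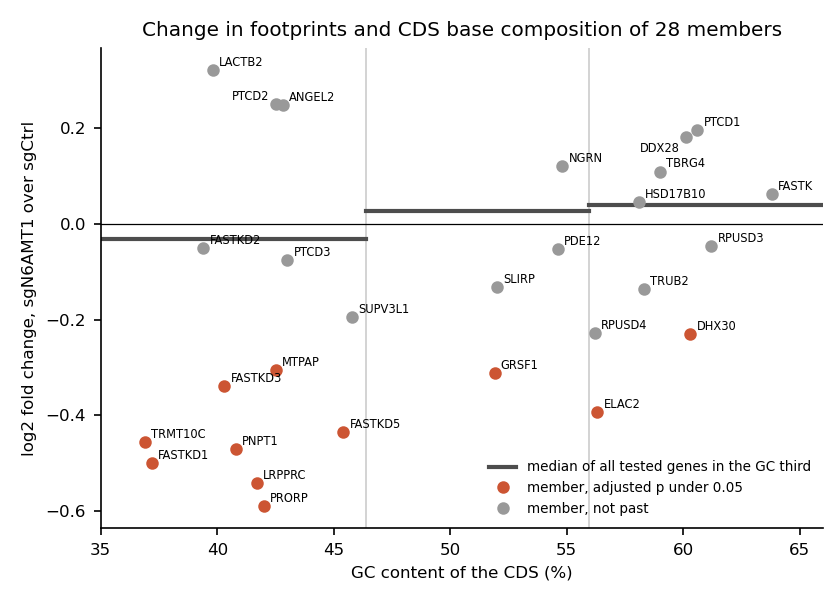
GC content of the CDS (%, horizontal axis) and log2 fold change of footprints (vertical axis) for 28 members, with the 11 that fell in red and the others in grey. Grey vertical lines mark the terciles of GC content over 8589 tested genes and dark bars their medians, and 8 of the 14 members in the lowest tercile fell.

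By stop codon, members that fell were found in each class. TGA ended 17 members (60.7%, against 49.1% of all genes), of which 7 fell, TAG ended 6, of which 2 fell, and TAA ended 5, of which 2 fell. Of all genes with these endings, 12.5%, 13.4% and 16.3% were called lower. A TGA followed by A, as printed above for HSD17B10, ELAC2 and LRPPRC, ended 8 members (28.6%, against 13.1% of all genes), 4 of which fell, and over all genes with that ending 14% were called lower. PRORP and TRMT10C, the RNase P subunits that fell, end in TAG and TAA, and HSD17B10, which did not pass, in TGA. In the leader before the start codon, 11 members (39.3%, against 39.4% of all genes) held at least 1 ATG, and 5 of them fell, as did 6 of the 17 members without one. Of all genes, 10.7% with and 15.8% without such an ATG were called lower. These counts depend on the leaders as annotated. The leader has 0 bases for PNPT1 and 3 for MTPAP, which fell, and 9 for SLIRP, which did not pass. Leaders this short leave little or no room for an ATG. PRORP has 4 such ATGs in a leader of 378 bases, and TRMT10C has 0 in a leader of 148 bases.

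Beyond the 29 genes, the modification genes of mitochondrial tRNA and rRNA had 24 of 25 members tested, NSUN4 being at 0 in all libraries. Of these 5 fell and 0 rose (20.8% lower), with a median log2 fold change of -0.09. Of all genes tested, 13.9% were called lower and 12.9% higher. MRM1, which methylates a ribose of the large mitochondrial rRNA, had 29.7 ± 1.98 CPM in sgCtrl and 15.1 ± 1.34 CPM in sgN6AMT1 (SD, n = 3; log2 fold change -0.97, SE 0.18, adjusted p = 8.96e-06, edgeR), an estimate more negative than that of any of the 29 members. NSUN2, a tRNA cytosine methyltransferase of nucleus and mitochondria, went from 276 ± 7.09 to 220 ± 6.12 CPM (log2 fold change -0.33, adjusted p = 2.29e-05), and QTRT1, a subunit of the enzyme that puts queuine into tRNAs, from 36.5 ± 5.36 to 22.4 ± 4.99 CPM (-0.69, adjusted p = 4.58e-04, both edgeR). The 13 reading frames of mtDNA, whose mRNAs are substrates of these proteins and are translated by mitoribosomes, held 6 that fell (46.2%) and 1 that rose (7.69%). MT-CO3 had 1026 ± 53.7 CPM in sgCtrl and 735 ± 32.1 CPM in sgN6AMT1 (log2 fold change -0.48, adjusted p = 7.98e-14, edgeR). MT-CO1 rose from 1356 ± 61.4 to 1720 ± 37.6 CPM (0.34, adjusted p = 1.02e-09), and MT-CYB fell from 638 ± 43.3 to 501 ± 19.2 CPM (-0.35, adjusted p = 1.38e-07, both edgeR). MT-ND6 had the most positive estimate of the 13 but did not pass (log2 fold change 0.84, SE 0.23, adjusted p = 0.0691, edgeR). It had 160.3 ± 30.4 CPM in sgCtrl and 291.5 ± 61.6 CPM in sgN6AMT1, without overlap. These are footprints left in a lysate prepared with cycloheximide, which stops cytosolic but not mitochondrial ribosomes.

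The nuclear counterparts were read in the same fit. Of the 10 tested proteins of nuclear RNase P and its relative RNase MRP, 1 fell and 2 rose, with a median log2 fold change of 0.10. These shares, 10% lower and 20% higher, stood beside 13.9% and 12.9% of all genes tested. RPP40 had 52.6 ± 2.83 CPM in sgCtrl and 41.6 ± 3.48 CPM in sgN6AMT1 (log2 fold change -0.33, adjusted p = 0.0342, edgeR), while RPP38 rose from 16.8 ± 1.17 to 23.9 ± 0.923 CPM (0.51, adjusted p = 0.0292). RPP25, with counts of 9, 9 and 17 against 32, 31 and 25, rose with a log2 fold change of 1.42 (adjusted p = 4.66e-05, edgeR). Of 12 tested genes of the RNA exosome and its helicases, 4 fell and 0 rose (33.3% lower, median -0.16), led by EXOSC5 (log2 fold change -0.43, adjusted p = 3.57e-03), EXOSC8 (-0.35, adjusted p = 3.58e-03) and EXOSC1 (-0.41, adjusted p = 9.39e-03, all edgeR). Of 14 genes listed for sensing double-stranded RNA in the cytosol, 7 had enough counts to be tested, of which 1 fell and 1 rose (14.3% each). PRKRA, an activator of the kinase PKR, fell (log2 fold change -0.64, adjusted p = 2.85e-03), and ADAR, which edits adenosines in double-stranded RNA, rose (0.20, adjusted p = 0.0467, both edgeR). The counts of these small lists moved when a library was left out: the exosome count was 2 without sgN6AMT1 library 2, RPP40 lost its call without sgCtrl library 2 or sgN6AMT1 library 1 or 3, and PRKRA without sgCtrl library 2. ADAR lost its call without sgCtrl library 2 or 3 or sgN6AMT1 library 1 or 3.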

How the data were processed

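Per the authors' methods, cutadapt removed adapters, reads as long as a footprint were mapped to GRCh38 (Ensembl release 84) with HISAT2, those on rRNA and tRNA were dropped, Bowtie2 placed the rest on 1 canonical transcript per gene, and riboWaltz assigned P-sites. The deposited values are raw footprint counts per transcript, not pooled, and whether they are P-sites summed over the CDS or overlaps with a gene annotation is not stated. The sources describe no removal of copies made in PCR, so such copies are taken to count as separate reads and sampling error is a lower bound. All columns belonged to the 6 libraries, and samples were grouped by their labels.

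Counts were tested with edgeR 4.0.16 (R 4.3.3; TMM factors, filterByExpr with a minimum count of 10, robust quasi-likelihood F test, 2-sided) on all 6 libraries, and p-values adjusted by Benjamini-Hochberg over 9202 genes. The 10128 genes removed held 0.465% of counts. The common biological coefficient of variation was 4.36%. CPM used TMM library sizes. Ratios of partners used a 2-sided exact permutation test over libraries. Pairs of libraries of the same group differed with a chi-square per degree of freedom of 1.25 to 1.68, above sampling noise, so none was counted as a duplicate. Transcripts were matched by identifier to GENCODE release 44 for position, exons and sequence (28 of 29 members; REXO2 not). All members are named, the 11 called and the 4 tRNA excision genes with each library's value, and at most 3 called genes of each other list by smallest p. MT-ND6, which was not called, is given in addition. A further gene of the lists is not reported here. The members and lists were chosen with earlier results of these data known. The scripts were tested on simulated counts with known changes, and fewer of them were recovered in genes averaging 20 to 100 counts, the range of PRORP, than in genes with more. Alternatives were DESeq2 1.42.0, limma-voom (limma 3.58.1), other scaling, other filters, a replicate block, removal of CDS length and GC trends, thinning to 1821356 counts and leaving out each library.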

Additional observations from a re-analysis of the deposited data

How the results depend on the processing

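The call of 6 members (TRMT10C, ELAC2, FASTKD1, LRPPRC, PNPT1 and GRSF1) held in all 16 alternatives, and that of PRORP, FASTKD3, FASTKD5, MTPAP or DHX30 was lost in at least 1. The count of members called lower was 7 with DESeq2, where 6.91% of all genes were (741 lower and 588 higher, against 1282 and 1191 with edgeR), and between 9 and 11 with limma-voom, other scaling, other filters and thinning. It was 16 with CDS length and GC trends removed, where 2050 genes in all were lower and 858 higher and the median of all genes moved to -0.08. Leaving out a library gave 8 to 12, the lowest without sgCtrl library 2, and no member called higher. The count called higher, LACTB2, was 1 with total counts only (adjusted p = 0.0340) and 1 with a mean of at least 50 counts (adjusted p = 0.0469). The same replicate numbers did not pair libraries (correlations of deviations -0.06, 0.02 and 0.02), and a replicate block gave 10 members lower.

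With DESeq2 the counts lower were 3 for modification genes, 0 for nuclear RNase P, 1 for the exosome and 0 for sensing, and the counts higher were 2 for mtDNA reading frames, 1 for nuclear RNase P and 0 for sensing. With total counts only, modification genes had 1 higher and nuclear RNase P 0 lower. With a mean of at least 50 counts, 1 modification gene, 2 mtDNA reading frames and 0 nuclear RNase P genes were higher. With trends removed, nuclear RNase P had 2 lower and 1 higher, the exosome 7 lower, sensing 2 lower and 0 higher, and modification genes 1 higher. With thinning, nuclear RNase P had 0 lower and 1 higher, and sensing 0 higher. Sensing had 0 higher with limma-voom, with no filter and with the replicate block, which gave 2 higher mtDNA reading frames. Leaving out a library gave 0 to 1 modification genes higher, 1 to 2 mtDNA reading frames higher, 0 to 1 nuclear RNase P genes lower and 1 to 2 higher, 2 to 4 exosome genes lower, and 0 to 1 sensing genes lower and 0 to 1 higher.

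Log2 fold changes of members that did not pass turned sign as follows. With trends removed, HSD17B10 was at -0.1347, FASTK at -0.0426, TBRG4 at -0.011 and NGRN at -0.0568. With total counts only, FASTKD2 was at 0.0045, PDE12 at 0.0026 and RPUSD3 at 0.0086. With thinning, FASTK was at -0.2075 and PDE12 at 0.0381. Leaving out a library moved HSD17B10 between -0.0127 and 0.085, FASTK between -0.1426 and 0.2312, PDE12 between -0.0992 and 0.0147 and NGRN between -0.0181 and 0.2211, each turning without sgCtrl library 2, and NGRN also without sgN6AMT1 library 3. RPUSD3 ran from -0.1284 to 0.0244 and turned without sgCtrl library 1. The log2 difference of the PRORP to TRMT10C ratio ran from -0.2034 to 0.0383 and turned without sgN6AMT1 library 1. The cause of these changes was not tested. FASTK and ANGEL2, the members with the fewest footprints, had 95% intervals of -0.42 to 0.54 and -0.18 to 0.68.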
